A study of Mus musculus with 6 samples.

Results

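Collagens are trimers of chains wound around each other through repeats rich in glycine and proline, and each chain has a gene of its own. The chain genes measured here are those whose symbol has the form Col, a type number, the letter a and a chain number, on probe sets with a single gene symbol. There were 44 such genes on 46 probe sets, of 19938 genes tested, and for each gene the probe set with the highest mean over the 6 arrays was used. By textbook class 11 were fibrillar, 8 of basement membrane, 9 FACIT (chains that sit on fibrils without forming any), 3 network-forming, 6 beaded filament, 4 transmembrane and 3 of other kinds (Col7a1, Col26a1 and Col28a1). Fibrils of type I collagen with types III and V give bone, tendon and vessel walls their strength, fibrils of type II with types IX and XI form the mesh of cartilage, and type IV sheets underlie endothelium and surround fat and muscle cells. In marrow, collagens are made by bone-lining cells, reticular stroma, vessel walls and, at the growth plate, chondrocytes.

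The cells were mouse primary bone marrow cells, freed by dissociation of the tissue and sorted as negative for CD45 (leukocytes) and Ter119 (red cell precursors) and positive for the ectoenzyme CD73. CD105 (endoglin) divided them further. The 3 samples without it (CD73+CD105-) and the 3 with it (CD73+CD105+) were sorted directly into lysis buffer, and total RNA of each sample was measured on 1 array as RMA log2 values per probe set. The labels name no treatment beyond dissociation and sorting, and no strain, genotype or age. Replicates are named biological in the labels, but whether separate animals were used is not said, and a p-value then reflects only how much these samples varied, which may be technical. Every difference is given in log2 units and is positive where the CD73+CD105+ mean was higher.

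Array medians lay between 6.27 and 6.35. The mean of Eng, which encodes CD105, was 6.30 ± 0.21 (SD, n = 3) without the marker and 8.06 ± 0.25 (SD, n = 3) with it. Nt5e, which encodes CD73, was at 10.63 ± 0.12 and 10.37 ± 0.08, and Ptprc, which encodes CD45, at 4.71 ± 0.05 and 4.70 ± 0.06 (SD, n = 3 each). To mark the level of genes that should be silent here, the means of 1190 odorant and pheromone receptor genes were taken, and 95% of them lay under 6.01 (the receptor gene percentile). Of the 44 collagen genes 3 had a mean below this, Col6a4, Col19a1 and Col28a1. Over all genes the mean of the replicate 1 arrays lay closer to the mean of the other 4 arrays (SD of the gap 0.0423) than did that of the replicate 2 arrays (0.152) or the replicate 3 arrays (0.159), and for the collagen genes the gap was at most 0.0867. No label describes this relation. A fit with a term for replicate 1 is therefore given where it moves a count. The term leaves every difference unchanged and lowers the residual degrees of freedom from 4 to 3. Why a count falls with the term was not tested.

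No collagen gene passed the threshold. In limma, 0 of 44 had a Benjamini-Hochberg adjusted p under 0.05, against 1.82% of all genes tested (1.35% higher and 0.466% lower), and the lowest adjusted p was 0.0586, of Col4a1. At an unadjusted p under 0.05 there were 13 of 44 (29.5%), 5 higher and 8 lower in CD73+CD105+ cells, against 17.7% of all genes (8.58% higher and 9.09% lower). Among the 41 genes above the receptor gene percentile there were 12, against 21.3%. With the replicate number as a block 0 passed after adjustment, against 1.08% of all genes. With a term for replicate 1 likewise 0 passed after adjustment, against 0.507% of all genes, and 9 (20.5%) had an unadjusted p under 0.05, against 12.3%. The median difference was 0.02, against -0.02 over all genes, and 25 of the 44 differences lay above 0, against 44.4% of all genes. The arrays of the 2 populations did not overlap for 6 genes that were higher and 9 that were lower, against 10.7% and 12.9% of all genes. Those 15 genes compare with 23.7% of all genes in either direction. The differences ran from -0.49 (Col9a2) to 0.82 (Col6a5), which is 1.77-fold at most. For 42 of the 44 genes the 95% interval of the difference lay within a 2-fold change in either direction. The exceptions were Col6a5 and Col14a1, with upper bounds of 2.45-fold and 2.38-fold.

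**Figure D1:**
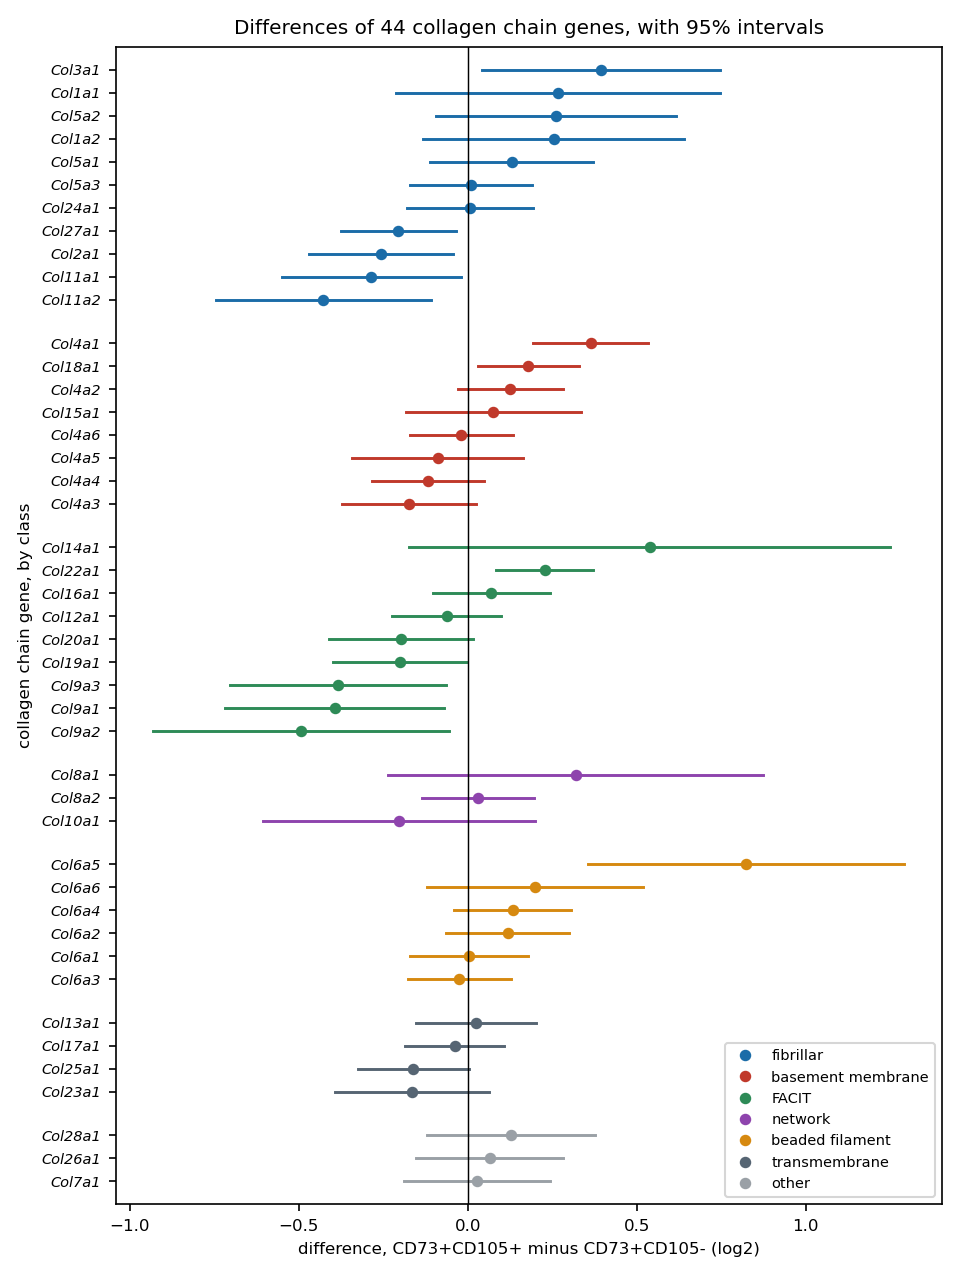
Differences of the 44 collagen chain genes, as the CD73+CD105+ mean less the CD73+CD105- mean in log2 units (points) with 95% intervals from limma (lines), grouped by class and coloured by it. The fibrillar and FACIT classes each hold genes on both sides of 0, from -0.43 to 0.39 and from -0.49 to 0.54, and no gene had an adjusted p under 0.05.

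Classes did not move as units. The class medians were 0.01 for fibrillar, 0.03 for basement membrane, -0.20 for FACIT, 0.03 for network, 0.13 for beaded filament, -0.10 for transmembrane and 0.06 for the other chains. Within the fibrillar class 7 of 11 differences lay above 0 and 4 below, and within the FACIT class 3 of 9 lay above. The chains of types I, III and V all lay above 0, Col5a3 only at 0.01, and the chains of the cartilage fibril, types II, IX and XI, all lay below it. These groups were drawn with the values known and cut across the classes, so they are a description without a test. The division does not hold by tissue over all chains, since Col12a1 of type I fibrils lay below 0 and Col14a1 above it.

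The promoter stretches of 5 chain genes are shown. They are Col3a1 and Col1a2 of interstitial fibrils, Col9a2 of cartilage fibrils, Col18a1 of the basement membrane zone and Col8a1 of the network class. These genes were picked from 11 whose stretch before the outermost annotated start held no other gene. Col9a2 lay below 0 and the others above, but the basement membrane and network classes each held genes on both sides of 0. Each stretch is the 150 bases before the gene's outermost annotated start in RefSeq on GRCm38.p6. It was taken by symbol from a table that held 35 of the 44 genes. They lie at chr1:45311388-45311537 (Col3a1, plus strand), chr6:4505468-4505617 (Col1a2, plus strand), chr4:121039416-121039565 (Col9a2, plus strand), chr10:77166531-77166680 (Col18a1, minus strand) and chr16:57754738-57754887 (Col8a1, minus strand). Capitals mark matches on either strand to 3 motifs. The TATA box was searched as TATAAA. For the CCAAT box the letters were those of its name. The GC box was searched as GGGCGG.
Col3a1: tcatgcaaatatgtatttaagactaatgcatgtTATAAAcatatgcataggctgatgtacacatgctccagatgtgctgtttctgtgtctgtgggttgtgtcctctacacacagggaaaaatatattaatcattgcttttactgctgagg
Col1a2: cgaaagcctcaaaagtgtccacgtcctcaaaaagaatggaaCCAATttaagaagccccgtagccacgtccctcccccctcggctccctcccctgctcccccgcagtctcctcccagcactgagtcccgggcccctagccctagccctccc
Col9a2: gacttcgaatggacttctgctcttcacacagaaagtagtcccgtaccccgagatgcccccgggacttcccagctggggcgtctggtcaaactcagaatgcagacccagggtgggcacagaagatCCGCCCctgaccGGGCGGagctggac
Col18a1: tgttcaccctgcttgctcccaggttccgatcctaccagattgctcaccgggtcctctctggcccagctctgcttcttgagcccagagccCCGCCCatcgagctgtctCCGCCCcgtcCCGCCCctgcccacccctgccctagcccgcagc
Col8a1: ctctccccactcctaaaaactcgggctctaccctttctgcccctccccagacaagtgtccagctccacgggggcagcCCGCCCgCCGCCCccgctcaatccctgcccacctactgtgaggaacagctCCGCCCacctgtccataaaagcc
A gene was counted where any of its listed windows of this length held the motif, and 3 of the 35 collagen genes had more than 1 window. TATAAA was present in 4 (11.4%) against 8.89% of 27025 genes in the table, and CCAAT in 8 (22.9%) against 27.7%. GGGCGG was present in 19 (54.3%) against 31.3%. GGGCGG occurred in the windows of Col9a2, Col18a1 and Col8a1 alike, of which the first lay below 0 and the others above. Such a match is a description of letters, not of a bound site.

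Among the interstitial fibril chains, Col3a1, the chain of type III collagen found in reticular fibres and vessel walls, stood furthest above 0. Its values were 10.24, 9.96 and 10.51 in CD73+CD105- replicates 1, 2 and 3 and 10.62, 10.47 and 10.80 in CD73+CD105+ replicates 1, 2 and 3. The groups overlapped only through CD73+CD105- replicate 3, which lay above CD73+CD105+ replicate 2. The difference was 0.39 (95% interval 0.04 to 0.75, adjusted p = 0.239). Col1a1 and Col1a2, the chains of type I collagen, the main protein of bone and tendon, differed by less. Col1a1 stood at 11.33, 10.95 and 11.67 in CD73+CD105- cells and at 11.58, 11.31 and 11.86 in CD73+CD105+ cells, and Col1a2 at 11.98, 11.73 and 12.33 against 12.28, 12.08 and 12.45. In each population replicate 2 was lowest and replicate 3 highest for these genes, and the groups overlapped. The differences were 0.27 (interval -0.21 to 0.75) for Col1a1 and 0.25 (-0.13 to 0.64) for Col1a2, with adjusted p-values of 0.544 and 0.471. The bounds for Col1a1 were ratios of 0.864 and 1.68.

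Type V collagen joins type I fibrils and limits their width. Its chain gene Col5a2 stood at 9.14, 9.01 and 9.45 in CD73+CD105- cells and at 9.45, 9.24 and 9.70 in CD73+CD105+ cells, with a difference of 0.26 (interval -0.10 to 0.62). Col5a1 differed by 0.13 (-0.11 to 0.37) and the minor chain gene Col5a3 by 0.01 (-0.17 to 0.19), and 0 of the 3 passed. The sign of the Col5a3 difference changed when single arrays were left out. Over the 5 genes Col1a1, Col1a2, Col3a1, Col5a1 and Col5a2 the median difference was 0.26, and it was 0.30 in replicate 1 and 0.24 in replicates 2 and 3. Single arrays moved it further: leaving out CD73+CD105- replicate 2 gave 0.11, leaving out CD73+CD105+ replicate 3 gave 0.14, and leaving out CD73+CD105- replicate 3 gave 0.41. All 5 genes lay above 0 each time, while Col5a3, left out of the group, was at -0.044 without CD73+CD105- replicate 2. Col24a1, a fibrillar chain of developing bone, differed by 0.01 (-0.18 to 0.19), a difference whose sign also changed without single arrays.

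The cartilage fibril chains lay lower in CD73+CD105+ cells without passing the threshold. Col2a1, the chain of type II collagen that makes up most of the cartilage fibril, stood at 11.57, 11.66 and 11.52 in CD73+CD105- cells and at 11.36, 11.44 and 11.17 in CD73+CD105+ cells. All CD73+CD105+ arrays lay below all CD73+CD105- arrays, with a difference of -0.26 (interval -0.47 to -0.04, adjusted p = 0.209). The type XI chains, which form the core of these fibrils, lay further apart. Col11a2 stood at 9.32, 9.54 and 9.10 against 8.91, 9.06 and 8.70 (difference -0.43, interval -0.75 to -0.11, adjusted p = 0.171), and its groups did not overlap. Col11a1 stood at 11.80, 12.07 and 11.81 against 11.70, 11.71 and 11.43 (difference -0.29, interval -0.55 to -0.02, adjusted p = 0.254), again without overlap. CD73+CD105+ replicate 3 was the lowest array for all of these genes. Col27a1, a fibrillar chain of cartilage that is not part of the type II fibril, differed by -0.21 (-0.38 to -0.03, adjusted p = 0.209), and its groups did not overlap.

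Type IX collagen is the FACIT that coats the type II fibril, and within each population all 3 of its chain genes were highest in replicate 2 and lowest in replicate 3. Col9a1 stood at 11.80, 12.04 and 11.77 in CD73+CD105- cells and at 11.57, 11.66 and 11.19 in CD73+CD105+ cells, without overlap, and differed by -0.39 (interval -0.72 to -0.07, adjusted p = 0.207). Col9a2 stood at 10.38, 10.61 and 10.18 against 9.92, 10.23 and 9.53. CD73+CD105+ replicate 2 lay above CD73+CD105- replicate 3, and the difference was -0.49 (-0.93 to -0.05, adjusted p = 0.236). Col9a3 differed by -0.38 (-0.70 to -0.07, adjusted p = 0.209). Over the 6 genes of types II, IX and XI all 6 had an unadjusted p under 0.05 in limma (17.7% of all genes did), 4 did not overlap (23.7% of all genes), and 0 passed after adjustment. This group was drawn with the values known and most of its genes shared the order of the replicates, so these counts are a description and no test. The median difference was -0.39. Replicate 1 gave a median of -0.31 and the other replicates -0.41, and without single arrays it ran from -0.49 to -0.26, the latter without CD73+CD105+ replicate 3, with all 6 genes below 0 each time. Col10a1, the network-forming chain of hypertrophic chondrocytes, stood at 11.43, 11.73 and 11.32 against 11.46, 11.48 and 10.94. These groups overlapped, since only CD73+CD105+ replicate 3 lay apart, and the difference of -0.20 did not pass (-0.61 to 0.20, adjusted p = 0.587).

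**Figure D2:**
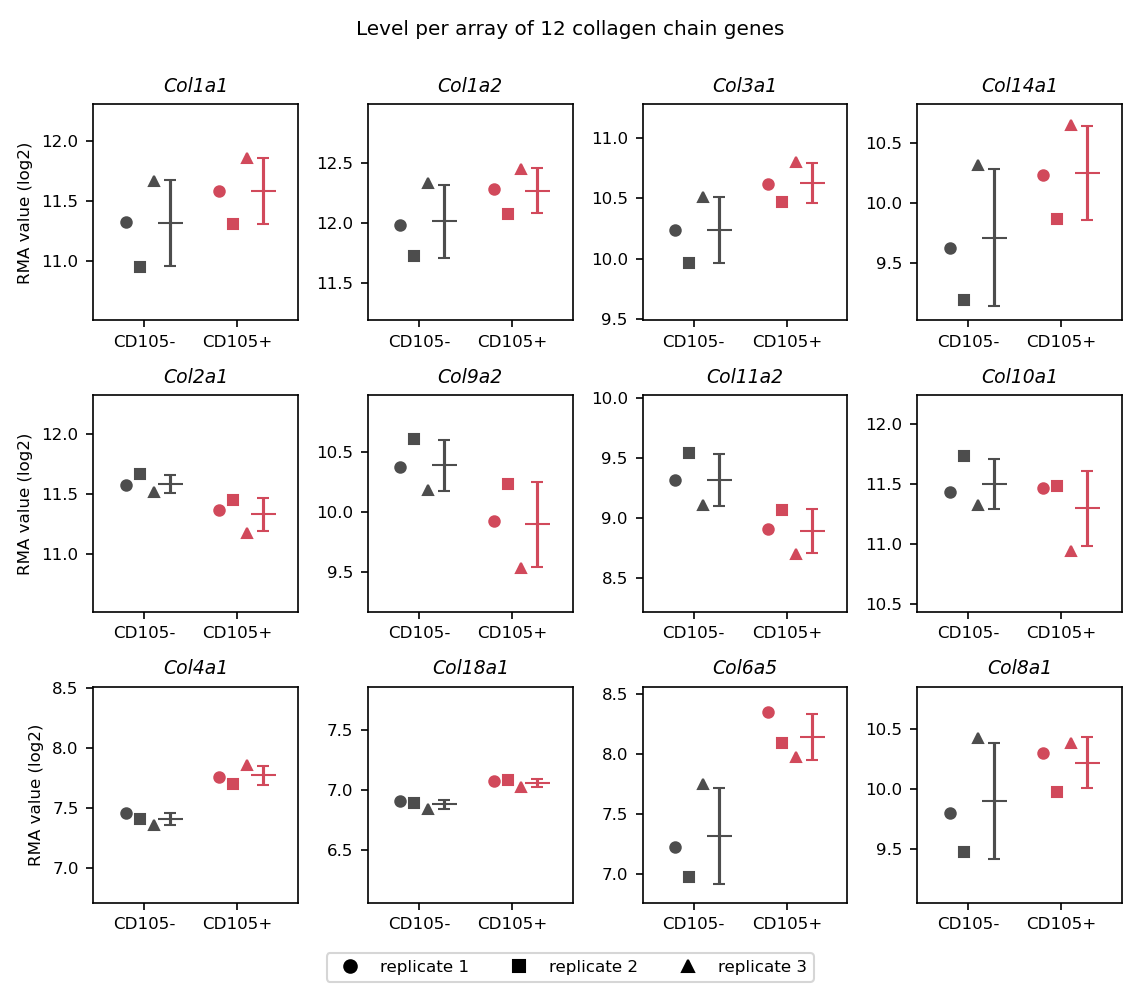
Level per array (RMA log2 value) of 12 collagen chain genes in CD73+CD105- cells (grey) and CD73+CD105+ cells (red), with a marker shape for each replicate number and the mean ± SD of 3 arrays beside them. Every panel spans the same number of log2 units. Col1a1, Col1a2 and Col3a1 were lowest in replicate 2 and highest in replicate 3 of each population, Col9a2 and Col11a2 the reverse, and the arrays of Col4a1 and Col18a1 were tight and did not overlap between populations.

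Markers of other cell types were measured beside these collagens, in lists without collagen genes. Of 12 chondrocyte markers 11 had a difference below 0, against 55.6% of all genes, and 0 passed (median -0.15). Among them the cartilage regulator Sox9 was at -0.33 and the matrix protein gene Matn1 at -0.61, both picked as examples after their values were seen. The summed linear level of the list was 55990 to 63520 in CD73+CD105- and 49090 to 58630 in CD73+CD105+ arrays, and 0 of its genes lay below the receptor gene percentile. Of 11 fibroblast and tendon markers 10 lay above 0, against 44.4% of all genes (median 0.42), with summed levels of 25060 to 29120 against 30710 to 34030. Only Cd34 passed, against 1.82% of all genes. Its difference of 1.45 stood apart from the rest of the list, in which Tnmd was next at 0.58. Which cells the Cd34 signal came from was not tested. The 7 osteoblast markers measured held 0 past the threshold (median 0.04), at 8472 to 10270 against 8241 to 11220. Within each population the means over the chondrocyte markers and over the cartilage collagens were highest in replicate 2 and lowest in replicate 3, while the means over the interstitial collagens and over the fibroblast and tendon markers were lowest in replicate 2 and highest in replicate 3. Single genes could depart from this order, as Col11a1 did in CD73+CD105- cells. The part of these cell types in the collagen differences was not tested, and in sorted bulk samples fewer cells of a type cannot be told apart from less RNA per cell.

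**Figure D3:**
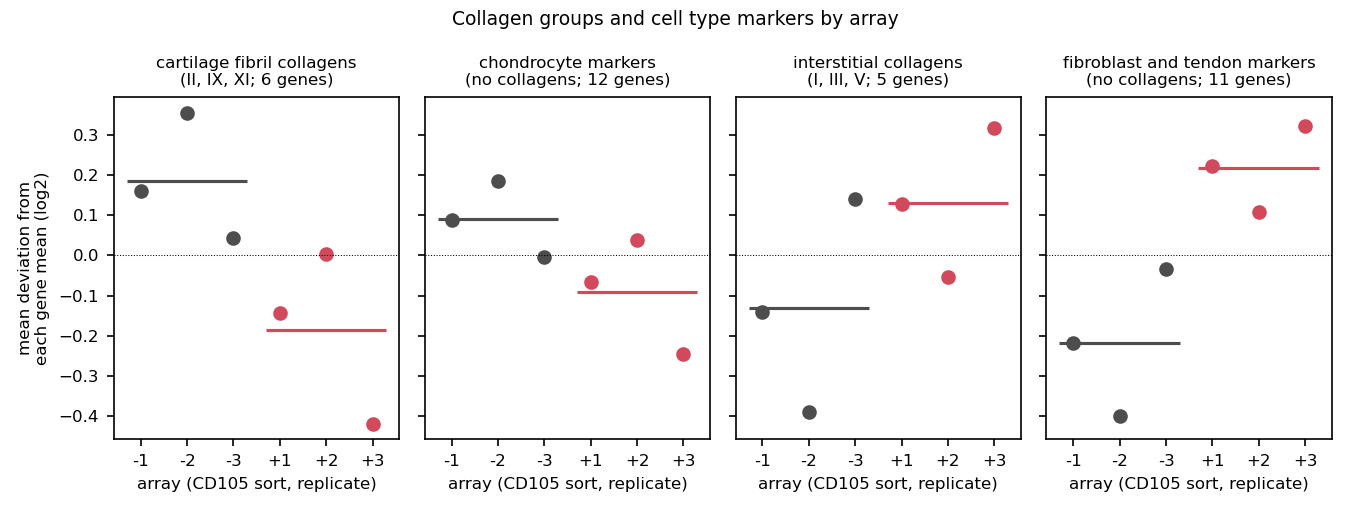
Mean deviation from each gene's mean over the 6 arrays (log2) for the cartilage fibril collagens, the chondrocyte markers, the interstitial collagens and the fibroblast and tendon markers, for CD73+CD105- replicates 1 to 3 (grey) and CD73+CD105+ replicates 1 to 3 (red), with group means as lines. The interstitial collagens here were Col1a1, Col1a2, Col3a1, Col5a1 and Col5a2, without Col5a3. The cartilage fibril collagens ran from 0.36 in CD73+CD105- replicate 2 to -0.42 in CD73+CD105+ replicate 3, and the interstitial collagens from -0.39 to 0.32 in the same arrays.

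The other FACIT chains were mixed. Col14a1, a chain on type I fibrils of tendon and skin, had the widest spread of any collagen gene, at 9.62, 9.19 and 10.32 in CD73+CD105- cells and 10.23, 9.87 and 10.65 in CD73+CD105+ cells. CD73+CD105- replicate 3 lay above 2 of the CD73+CD105+ arrays, and the difference of 0.54 did not pass (interval -0.17 to 1.25, adjusted p = 0.408). Leaving out CD73+CD105- replicate 2 gave 0.28 and leaving out CD73+CD105+ replicate 3 gave 0.34, while leaving out CD73+CD105- replicate 3 gave 0.84. Col22a1, known from the junction of muscle and tendon, differed by 0.23 with little spread, at 7.18, 7.12 and 7.17 against 7.38, 7.38 and 7.38. Its groups did not overlap (interval 0.08 to 0.37), and its adjusted p was 0.122. Col12a1, a relative of Col14a1 on type I fibrils, was at 12.27 ± 0.05 and 12.21 ± 0.06 (SD, n = 3 each), and its interval of -0.22 to 0.10 corresponds to ratios of 0.857 to 1.07. Col16a1 differed by 0.07. Col19a1 and Col20a1 both differed by -0.20, and Col19a1 lay below the receptor gene percentile.

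In the basement membrane class the common type IV chains lay above 0 and the restricted ones below it. Of the type IV chains only Col4a1 had an interval clear of 0. Col4a1 and Col4a2 encode the chains of the type IV network found under nearly every endothelium and epithelium. Col4a1 stood at 7.46, 7.41 and 7.36 in CD73+CD105- cells and at 7.76, 7.70 and 7.86 in CD73+CD105+ cells, without overlap. The difference of 0.36 (interval 0.19 to 0.54) was 1.29-fold, with an adjusted p of 0.0586 in limma. Over the alternatives its adjusted p ran from 0.0281, with array weights, to 0.395. Its partner Col4a2 stood at 7.30, 7.26 and 7.36 against 7.48, 7.40 and 7.42, also without overlap, and differed by 0.13 (-0.03 to 0.28, adjusted p = 0.371). The genes for the chains known from kidney filter and other specialised membranes differed by -0.17 (Col4a3), -0.12 (Col4a4), -0.09 (Col4a5) and -0.02 (Col4a6), with 0 passing. The median over all genes was -0.02. Their means over the 6 arrays, from 6.11 (Col4a6) to 6.63 (Col4a5), lay little above the receptor gene percentile of 6.01. Col4a3 stood at 6.67, 6.50 and 6.52 against 6.28, 6.47 and 6.42, without overlap, and Col4a4 did not overlap either. In replicates 2 and 3 alone Col4a5 and Col4a6 lay above 0, at 0.040 and 0.022.

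Col18a1 and Col15a1 encode the multiplexins, collagens with heparan or chondroitin sulfate chains that lie at basement membranes, and endostatin is cut from the end of the Col18a1 chain. Col18a1 stood at 6.91, 6.90 and 6.84 in CD73+CD105- cells and at 7.08, 7.08 and 7.02 in CD73+CD105+ cells, without overlap. The difference of 0.18 (interval 0.03 to 0.33) did not pass (adjusted p = 0.211). Col15a1 stood at 8.79, 8.60 and 8.87 against 8.71, 8.77 and 9.02, with a difference of 0.08 (-0.18 to 0.34). Beside these values, 11 of 12 endothelial markers passed and were higher in CD73+CD105+ cells (median 1.57), against 1.82% of all genes. With a term for replicate 1 there were 8, without Kdr, Tie1 and Plvap, and with the replicate block 9. Their summed linear levels were 725.9 to 864.8 against 3512 to 4640. In CD73+CD105- cells 6 of the 12 had means below the receptor gene percentile, among them Pecam1 (5.69) and Emcn (4.58). Of 9 pericyte and smooth muscle markers 3 passed and were higher (median 0.45, summed levels 2026 to 2349 against 2597 to 3267). Below 0 lay 2 of the 9, Cspg4 (-0.47, without overlap, adjusted p = 0.0634 in limma) and Des (-0.02). Of 8 reticular stroma markers 6 passed and were higher (median 1.10, 2057 to 2766 against 4248 to 5110), and 1, Foxc1, lay below 0 (-0.17). With a term for replicate 1 the counts past the threshold fell to 1 (Tagln) and 2 (Lepr and Vcam1), against 0.507% of all genes. With the replicate block they were 2 and 5, against 1.08%. The part of these cells in the type IV and Col18a1 differences was not tested.

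Beaded filament collagen, type VI, surrounds cells in most connective tissues, built from the chains of Col6a1, Col6a2 and Col6a3. These genes barely differed. Col6a1 was at 11.10 ± 0.09 and 11.11 ± 0.06, Col6a2 at 10.15 ± 0.10 and 10.27 ± 0.05, and Col6a3 at 11.64 ± 0.04 and 11.61 ± 0.04 (SD, n = 3 each). The differences of 0.0040, 0.12 and -0.03 had intervals that stayed within a 1.23-fold change, and the sign of Col6a1 changed when arrays were left out. The genes Col6a4, Col6a5 and Col6a6 encode further chains that can take the place of the Col6a3 chain. Col6a5 had the largest difference of all 44 genes, with 7.22, 6.97 and 7.75 in CD73+CD105- cells against 8.35, 8.09 and 7.97 in CD73+CD105+ cells. The groups did not overlap, and CD73+CD105- replicate 3 lay nearest to the other population. The difference of 0.82 (interval 0.35 to 1.29) had an adjusted p of 0.0959. It was 1.04 with an adjusted p of 0.0345 without CD73+CD105- replicate 3, and over the alternatives its adjusted p ran from 0.0242 to 0.507.

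Col6a5 and Col6a6 each had a second probe set, and these disagreed in size. The Col6a5 probe set used (10596403) differed by 0.82 and the other (10596409) by 0.23, at 7.08, 6.91 and 7.17 against 7.31, 7.16 and 7.39, with overlap. The Col6a6 probe set used (10596383) stood at 7.55, 7.21 and 7.62 against 7.48, 7.66 and 7.84 and differed by 0.20. The other (10596394) differed by 0.57 but ranged from 5.70 to 6.93 in CD73+CD105- cells and from 6.20 to 7.72 in CD73+CD105+ cells, also with overlap. Averaging the probe sets gave a Col6a5 difference of 0.53. Col6a4 stood at 5.86, 5.82 and 5.75 against 5.87, 6.04 and 5.92, below the receptor gene percentile as a mean, and differed by 0.13, without overlap (adjusted p = 0.404).

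In the network class, Col8a1 and Col8a2 encode type VIII collagen of vessel walls and the cornea. Col8a1 stood at 9.80, 9.48 and 10.43 in CD73+CD105- cells and at 10.30, 9.98 and 10.39 in CD73+CD105+ cells. CD73+CD105- replicate 3 was the highest of all 6 arrays, and the difference of 0.32 did not pass (interval -0.24 to 0.87, adjusted p = 0.529). Without that array the difference was 0.58. Col8a2 stood at 6.87, 6.88 and 6.80 against 6.91, 6.94 and 6.79 and differed by 0.03 (-0.14 to 0.20). Of the transmembrane chains, Col13a1 differed by 0.03, Col17a1, an anchor of skin epithelium, by -0.04, Col25a1 by -0.16 and Col23a1 by -0.16. Col25a1 stood at 6.66, 6.78 and 6.70 against 6.61, 6.55 and 6.50, without overlap. Col23a1 stood at 7.16, 6.99 and 7.09 against 6.87, 7.08 and 6.79, with overlap. Col17a1 hardly varied, at 6.34, 6.29 and 6.26 against 6.25, 6.27 and 6.26. Col7a1, the chain of the anchoring fibrils of skin, stood at 7.26, 7.14 and 7.03 against 7.09, 7.30 and 7.11 and differed by 0.03. Col26a1 stood at 7.41, 7.39 and 7.34 against 7.49, 7.57 and 7.26 and differed by 0.06. Col28a1, below the receptor gene percentile, stood at 5.37, 5.52 and 5.59 against 5.82, 5.55 and 5.51 and differed by 0.13. All 3 overlapped, and 0 of these 3 or of the 4 transmembrane genes passed.

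**Figure D4:**
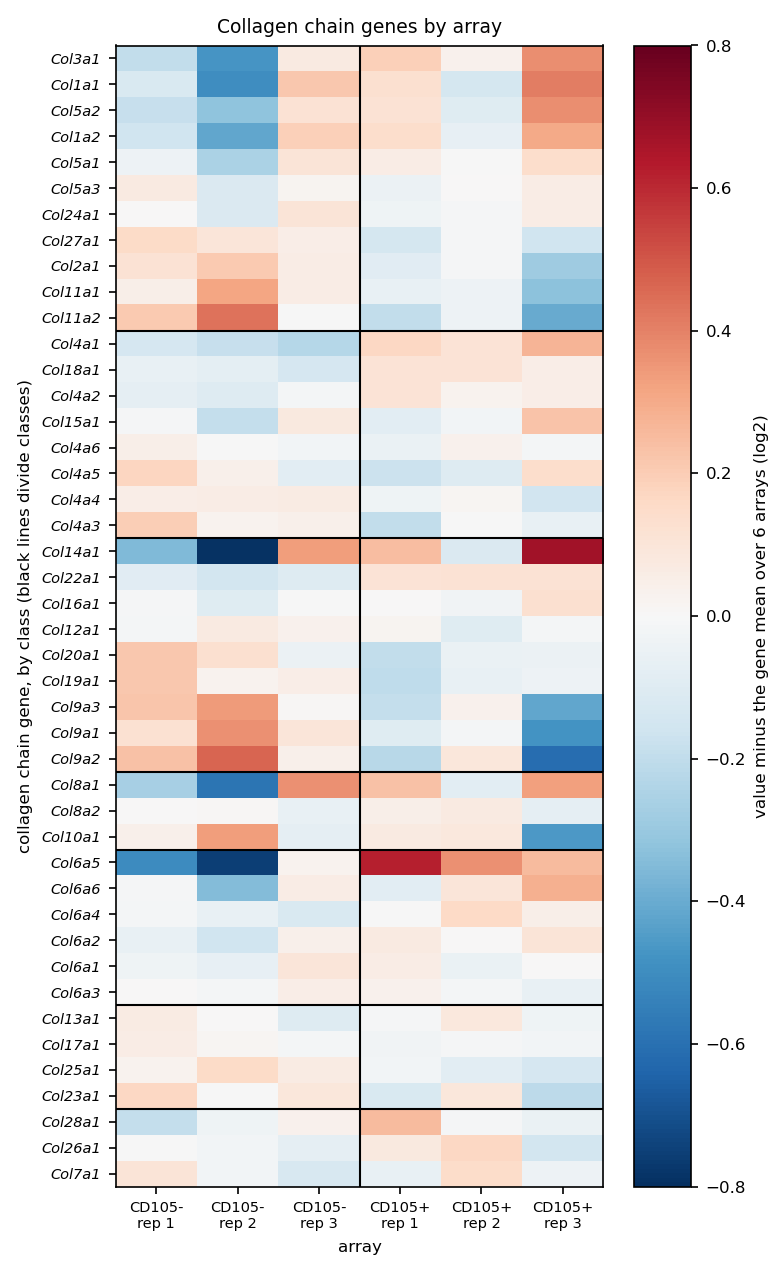
Value of each of the 44 collagen chain genes in each array minus the gene's mean over the 6 arrays (log2, colour), with CD73+CD105- replicates 1 to 3 left of the vertical line and CD73+CD105+ replicates 1 to 3 right of it, and horizontal lines between classes. The type I, III and V genes and Col14a1 were low in CD73+CD105- replicate 2 and high in CD73+CD105+ replicate 3, and the type II, IX and XI genes were the reverse.

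Several chain genes are direct neighbours on their chromosomes, with no other protein-coding gene between them in RefSeq, in 8 pairs. The pairs Col4a1 with Col4a2 (0.36 and 0.13), Col4a4 with Col4a3 (-0.12 and -0.17) and Col4a6 with Col4a5 (-0.02 and -0.09) are partner chains of type IV. Col4a1 lies on the minus and Col4a2 on the plus strand, and their annotated stretches overlap where both genes start. Col4a4 and Col4a3 overlap in the annotation as well. Col3a1 and Col5a2 (0.39 and 0.26) both belong to interstitial fibrils, and Col6a2 and Col6a1 (0.12 and 0.0040) to type VI. Col6a6, Col6a5 and Col6a4 lie in a row on the minus strand and differed by 0.20, 0.82 and 0.13. Col9a1 and Col19a1 (-0.39 and -0.20) are FACIT genes. In these pairs both members lay on the same side of 0, which was not tested. The share of such pairs among all genes was not measured. The signs of Col6a1, Col4a5 and Col4a6 changed under some alternatives, and the pairs with Col6a6 and Col6a4 share Col6a5.

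The genes that modify, trim and bind collagen also held 0 past the threshold. Of 16 measured genes of prolyl and lysyl modification and folding 14 had differences below 0 (55.6% of all genes did), with a median of -0.15. An unadjusted p under 0.05 in limma was found for 6 of these 16, for 2 of the 11 trimming and cross-linking genes and for 3 of the 9 receptor genes, against 17.7% of all genes. The widest were Colgalt2, which adds galactose to hydroxylysine, at -0.56 (adjusted p = 0.339, 0.0907 to 0.659 over the alternatives), and Plod3, a lysyl hydroxylase, at -0.28. Plod3 stood at 9.60, 9.67 and 9.49 against 9.29, 9.35 and 9.28, without overlap (adjusted p = 0.111, 0.0371 to 0.551 over the alternatives). Of 11 genes of procollagen trimming and cross-linking 7 lay above 0 and 4 below (median 0.05), with the protease gene Tll1 at 0.50 and the lysyl oxidase Loxl4 at -0.36. Of 9 collagen receptor genes 5 lay above 0 (median 0.06). Itga11, the integrin chain that binds type I collagen, stood at 9.11, 8.87 and 9.35 against 9.77, 9.51 and 9.58, without overlap, and differed by 0.51 (adjusted p = 0.113). Ddr1, a receptor kinase for collagens, stood at 7.41, 7.52 and 7.24 against 6.90, 6.88 and 6.98, also without overlap, and differed by -0.47 (adjusted p = 0.0506). The Ddr1 adjusted p was 0.0424 without CD73+CD105- replicate 3, and over the alternatives it ran from 0.0149 to 0.413.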

How the data were processed

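Total RNA from 6 sorted samples carried a biotin label, per the labels, with 1 array for each. The authors deposited log2 values per probe set, and the submitters' processing notes name RMA, a method that corrects background, aligns the distributions of arrays and summarises probes. Its version and settings and the genome build: not given in the sources used here. The scanner's own output was not analysed here. Of 35556 probe sets 21789 had 1 symbol in the platform annotation, 1621 several and 12146 none here.

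Differences were fitted in R 4.3.3 by limma 3.58.1 (moderated two-sided test from lmFit and eBayes, no block) over 19938 genes, with Benjamini-Hochberg adjustment over all of them and a threshold of 0.05. Intervals are 95% ones from the moderated standard errors. No filter on dim genes was applied. Precision is limited by having 3 arrays a group. The fit was tested on simulated data with planted differences larger than any collagen difference found here. That test therefore says nothing on how well differences of the reported sizes would be found. Any collagen gene could be named, with values of all 6 arrays for genes past the threshold and for the 3 with the widest differences in each class. Of the processing and receptor lists, genes past the threshold or otherwise the 2 widest were named, and Eng, Nt5e and Ptprc were given as sort markers. Array values of further collagen genes were added after they were seen. The members, classes, groups and lists were chosen with earlier results of these data known. Alternatives were a replicate block, a term for replicate 1, single arrays left out, other scaling, filtering, probe set choice, variance models, array weights and replicates 2 and 3 only. Of the marker lists for other cells, skeletal muscle (7 genes measured, median difference -0.0058), Schwann cell (3, -0.060), epithelial (6, -0.054) and haematopoietic (8, 0.0030) held 0 past the threshold in limma, with 0, 0, 1 and 2 at an unadjusted p under 0.05. Of 5 adipocyte markers 1, Lpl, passed and was higher, and with a term for replicate 1 there were 0 (adjusted p of Lpl 0.0643).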

Additional observations from a re-analysis of the deposited data

How the results depend on the processing

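The count of collagen genes past the threshold was 0 in 13 of 15 alternatives. It was 2 with array weights, Col4a1 (0.34, adjusted p = 0.0281 in limma) and Col6a5 (0.97, adjusted p = 0.0242), and 0 to 1 when single arrays were left out, the 1 being Col6a5 without CD73+CD105- replicate 3. Over all genes the count was 363, and it was 215 with the replicate block, 101 with a term for replicate 1, 86 to 293 without single arrays, 1331 with array weights and 29 in replicates 2 and 3 alone. Whether the replicate numbers pair the samples is not said in the labels, and the values do not settle it. Same-numbered arrays had correlations of their deviations from the population means of -0.88, 0.0066 and 0.10 over all genes. Between arrays of different numbers they ran from -0.37 to 0.45. The value of -0.88 goes with the small gap of the replicate 1 arrays and cannot exclude pairing. The block changed no call of a collagen gene. Of 657 alternative values of single collagen genes 631 kept their sign and their side of the threshold. This count is partly fixed by the design. The replicate block, the term for replicate 1, the receptor gene filter and the variance models leave the differences unchanged. Under those alternatives no sign could change. The basement membrane median was -0.013 with array weights, 0.070 in replicates 2 and 3 and -0.017 to 0.053 without single arrays. The FACIT median was -0.13 over genes above the receptor gene percentile, -0.28 with array weights, -0.091 in replicates 2 and 3 and -0.23 to -0.14 without single arrays. Without single arrays the median was -0.044 to 0.062 for the fibrillar class, 0.0020 to 0.075 for the network class, 0.071 to 0.14 for beaded filament, -0.0013 to 0.15 for the other chains, -0.19 to -0.10 for the modification list and -0.011 to 0.14 for the receptor list. The receptor list median was 0.12 with array weights, and the trimming list median 0.12 with averaged probe sets. With array weights 1 gene of the modification list (Plod3) and 2 of the receptor list (Ddr1 and Itga11) passed. Ddr1 also passed over genes above the receptor gene percentile (count 1) and without CD73+CD105- replicate 3 (0 to 1 without single arrays). Of the 30 collagen genes with a difference of at least 0.1 in size, 16 moved by over 1.5 times when some array was left out, most often CD73+CD105- replicate 2 or CD73+CD105+ replicate 3 (10 genes each). The sign changed for 10 collagen genes. With array weights Col13a1 was -0.013, Col24a1 -0.0036, Col5a3 -0.031 and Col7a1 -0.047. In replicates 2 and 3 Col28a1 was -0.029, Col4a5 0.040, Col4a6 0.022 and Col6a1 -0.041. Without single arrays the range was -0.021 to 0.064 for Col13a1, -0.018 to 0.14 for Col15a1, -0.050 to 0.062 for Col24a1, -0.0013 to 0.15 for Col26a1, -0.043 to 0.0023 for Col4a6, -0.044 to 0.049 for Col5a3, -0.027 to 0.053 for Col6a1 and -0.038 to 0.086 for Col7a1. The causes were not tested. The medians of the interstitial and cartilage groups under these alternatives were added after the data were seen. The deposited values hold no detection call, so whether dim genes were above background is not known.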

Other observations

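Among the collagen genes 9 of 44 (20.5%) were lowest in replicate 2 and highest in replicate 3 of both populations, against 5.51% of all genes: Col1a1, Col1a2, Col3a1, Col5a1, Col5a2, Col6a2, Col8a1, Col14a1 and Col16a1. The opposite order was found for 7 of 44 (15.9%), against 6.55% of all genes: Col2a1, Col8a2, Col9a1, Col9a2, Col9a3, Col10a1 and Col11a2. No label says that the replicate numbers pair the samples, and the orders were counted after the values were seen.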
